A study of Mus musculus with 6 samples.

Results

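The genes described here are 41 genes that type I interferon is known to switch on, called interferon-stimulated genes below, and 38 of them could be measured in CD4 T cells among 19938 genes in all. They were taken from a list of well-known members of the interferon response, and each gene was read from the probe set that names it alone and has the highest mean over the 6 arrays. Isg15 and Ifi47 were each named by 1 probe set together with another gene, Ifi44 was named by none here, and these 3 genes have no value. The rule uses no difference between groups, but the genes were chosen with earlier results of these data known. Counts of members set beside shares of all genes therefore describe the list and do not test it.

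Type I interferons bind the receptor chains encoded by Ifnar1 and Ifnar2 and activate the kinases Jak1 and Tyk2. These phosphorylate transcription factors such as Stat2, which works with Irf9 at the interferon-stimulated response element upstream of genes for viral sensing, translation block, RNA decay and protein modification. T cells express many of these genes at rest, and strong interferon signalling in T cells is known to restrain proliferation and to alter survival, depending on its timing relative to antigen.

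The study compared what antigen carried to different dendritic cells does to T cells of 1 specificity. NOD mice, a strain that develops autoimmune diabetes, carried transferred BDC2.5 CD4 T cells, which bear a transgenic receptor for an islet antigen. All 3 groups were female NOD mice of 7 weeks, and their spleen T cells were taken 14 hours after injection as Thy1.1+CD4+ cells following negative magnetic selection. The groups were anti-DCIR2-BDC, which received 100 ng of antibody to DCIR2 linked to the BDC antigen, anti-DEC205-BDC, which received 100 ng of antibody to DEC205 linked to the same antigen, and PBS, which received buffer. DEC205 marks the cross-presenting dendritic cell subset of mouse spleen, and DCIR2 marks the other conventional subset. No group analysed here received antibody without antigen, so the effects of antigen and of antibody cannot be told apart. Each group had 2 arrays. The labels call them biological duplicates, and the number of mice behind a sample is not stated, so p-values measure the spread between these samples. From 5 ng of total RNA per sample, cDNA was amplified, labelled with biotin and hybridised to Affymetrix arrays.

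The deposited values are log2 expression levels normalised by robust multi-array averaging (RMA), with array medians of 5.43 to 5.56, and the number of arrays limits their precision. RMA sets all arrays to a like distribution, so a shift shared by all genes would not be seen. The mean level of 10 T cell identity markers was 9.43 to 9.66 in anti-DCIR2-BDC arrays, 9.93 to 9.98 in anti-DEC205-BDC arrays and 10.1 to 10.3 in PBS arrays. Across 31 markers of B cells, dendritic cells, macrophages and neutrophils the mean was 4.85 to 4.87, 4.88 to 4.91 and 4.90 to 4.99 in anti-DCIR2-BDC, anti-DEC205-BDC and PBS arrays. In every array 24 of the 31 lay below 5.63, the median over all genes of their mean level in the 6 arrays. The anti-DEC205-BDC replicate 2 array correlated more closely with the anti-DCIR2-BDC arrays (r = 0.979 and 0.980 over all probe sets) than with its own replicate (r = 0.974).

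Interferon-responsive promoters are recognised by a pair of GAAA repeats, and the stretches below show where this core was found upstream of members. The letters searched were GAAA, any 2 bases and GAAA again, on both strands of the 250 bases before each RefSeq start (GRCm38.p6), and RefSeq gave a window for 28 of the 38 measured members. The core was present in 8 of these 28 members (28.6%), namely Bst2, Ifit1, Ifit3, Oas1a, Oas3, Rsad2, Stat2 and Trim30a, against 936 of 27025 genes with a window (3.46%). The stretches belong to the 5 members with the core and the largest mean change against PBS, and to Rsad2, which had the smallest of the 8. Capitals mark the core, which reads TTTC, any 2 bases and TTTC where it lies on the opposite strand, and each stretch is written 5′ to 3′ on the strand of its gene.
Ifit1: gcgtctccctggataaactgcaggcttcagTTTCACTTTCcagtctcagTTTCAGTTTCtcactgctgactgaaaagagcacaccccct
Trim30a: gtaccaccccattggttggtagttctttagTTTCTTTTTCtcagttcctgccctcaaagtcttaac
Ifit3: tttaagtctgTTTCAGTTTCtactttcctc
Stat2: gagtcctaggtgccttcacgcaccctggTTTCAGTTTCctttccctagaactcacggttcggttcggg
Oas1a: tcggGAAATGGAAACTGAAAatct
Rsad2: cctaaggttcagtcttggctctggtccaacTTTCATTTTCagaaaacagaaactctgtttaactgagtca

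The Ifit1 stretch lies at chr19:34640755-34640843 on the plus strand and holds 2 cores, the nearer one 76 to 85 bases before the start. For Trim30a the stretch is chr7:104465194-104465259 on the minus strand, with the core 27 to 36 bases before the start. That of Ifit3 (chr19:34583397-34583426, plus strand) lies within the annotated span of its gene. That of Oas1a (chr5:120907526-120907549, minus strand) lies partly within the span of its gene and runs past its edge. The Oas1a stretch holds 2 cores that overlap each other, 5 bases before the start at the nearest. The core of Stat2 (chr10:128270248-128270315, plus strand) was 213 to 222 bases before the start, and that of Rsad2 (chr12:26456533-26456602, minus strand) 111 to 120 bases. A second core, TTCNNNGAA, that of the gamma-activated sequence known from interferon gamma responses, was found in 5 of 28 members (17.9%) and 8.13% of all genes with a window. Bst2 and Oas1a held both cores, and their letters overlapped in Bst2. A match says only that these letters are present.

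Against PBS, most of the interferon-stimulated genes were lower in T cells of mice given anti-DCIR2-BDC. In anti-DCIR2-BDC cells 22 of 38 measured members were lower and 1, Ifitm3, was higher by limma with Benjamini-Hochberg adjustment over all 19938 genes (adjusted p under 0.05). Over all genes 17.9% passed in this comparison, 7.82% lower and 10.1% higher. The members were brighter than most genes, with 29 of 38 above the median of all genes in mean level over the 6 arrays. Among genes above that median 18 of 29 members and 13.0% of genes were lower. Among the dimmer genes 4 of 9 members and 2.62% of genes were. The largest falls were in the growth-restraining antiviral gene Samd9l, 6.25-fold, the nuclear body gene Sp100, 4.19-fold, and the nucleic acid sensor Zbp1, 4.15-fold. Of the members, 17 were lower by at least 2-fold and passed, where 3.42% of all genes did so. The median change of the 38 members was -0.94 on the log2 scale, against -0.05 over all genes. Both anti-DCIR2-BDC arrays lay below both PBS arrays for 29 members and above them for 3, where 31.9% and 23.4% of all genes did so (55.3% in all). A further 6 of the 15 members that did not pass had an unadjusted p under 0.05, a level that 28.1% of all genes reached, 13.7% lower and 14.4% higher. In 17 of the 23 members the call held under each of the 17 processing alternatives in which the gene was tested (16 for Ifit3 and Dhx58, which fall among the dimmest 50% of genes), and Ifit2, Ifitm3, Lgals3bp, Mx2, Oas3 and Oasl2 lost it under at least 1.

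T cells of mice given anti-DEC205-BDC were compared with the same PBS arrays, so both comparisons share those arrays. In anti-DEC205-BDC cells 18 of 38 members were lower and 0 were higher at a limma adjusted p under 0.05, where 8.84% of all genes passed, 3.53% lower and 5.32% higher. Among genes above the median level 15 of 29 members and 5.99% of genes were lower, and among the dimmer genes 3 of 9 and 1.06%. Of the members, 23 were lower and 1 was higher at an unadjusted p under 0.05, a level that 20.7% of all genes reached, 10.1% lower and 10.7% higher. The largest falls were in Rtp4, 3.89-fold, Samd9l, 3.21-fold, and Zbp1, 2.93-fold. At least 2-fold lower and past the test were 9 members, against 1.27% of all genes, and the median change was -0.73, against -0.03 over all genes. Both anti-DEC205-BDC arrays lay below both PBS arrays for 26 members and above them for 1, where 26.5% and 22.2% of all genes did so (48.8% in all). When all 35556 probe sets, named or not, were tested together, 4 members passed, which were Samd9l, Zbp1, Ifit1 and Parp9, and 14 of the 18 lost the call under at least 1 of the 17 alternatives.

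**Figure D1:**
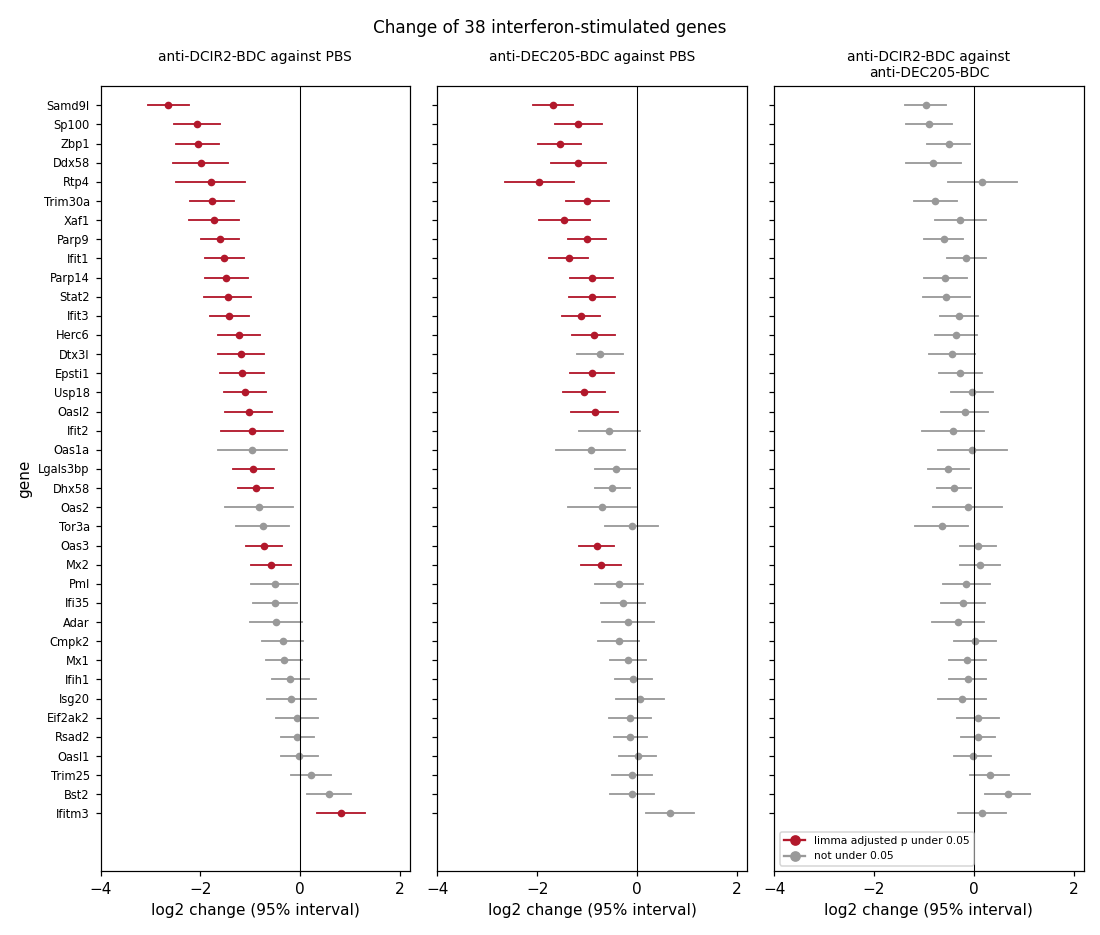
Log2 change of each of the 38 measured members (points) with its 95% interval (lines) for anti-DCIR2-BDC against PBS, anti-DEC205-BDC against PBS and anti-DCIR2-BDC against anti-DEC205-BDC, with genes down the page in order of the first comparison. Red marks a limma adjusted p under 0.05: 23 genes in the first panel, 18 in the second and 0 in the third.

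Between the antibodies, no member passed. Of the 38 members 29 had a lower mean in anti-DCIR2-BDC than in anti-DEC205-BDC arrays, and the median difference was -0.23, against -0.01 over all genes. At a limma adjusted p under 0.05, 0 of 38 members and 0.0201% of all genes differed. At an unadjusted p under 0.05, 11 members were lower and 1, Bst2, was higher in anti-DCIR2-BDC cells, where 10.2% of all genes reached that level, 4.63% lower and 5.58% higher. Both anti-DCIR2-BDC arrays lay below both anti-DEC205-BDC arrays for 19 members and above them for 2, where 20.9% and 19.3% of all genes did so (40.2% in all). The mean level of the 38 members was 6.02 and 6.03 in the anti-DCIR2-BDC arrays, 6.24 and 6.30 in the anti-DEC205-BDC arrays and 6.96 and 6.92 in the PBS arrays. The mean of all genes stayed between 5.89 and 5.93, as it must nearly do because RMA sets all arrays to a like distribution.

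**Figure D2:**
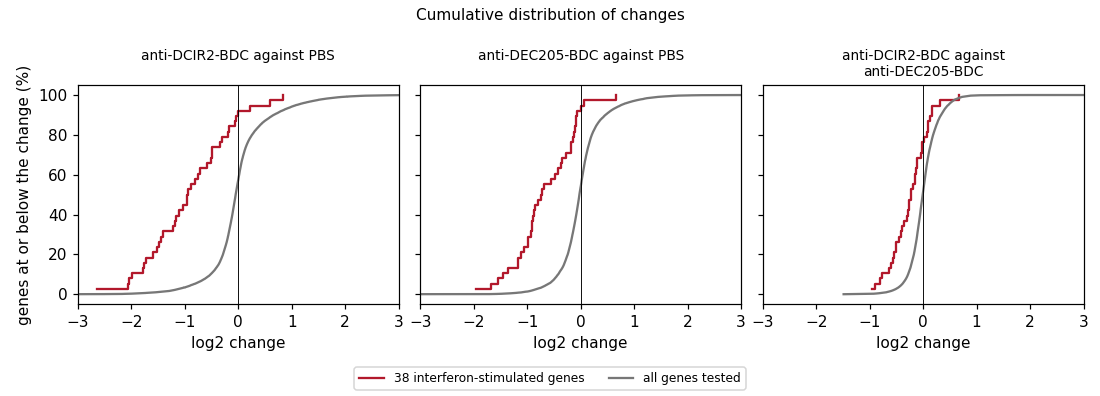
Cumulative share of genes (vertical axis, percent) at or below a given log2 change (horizontal axis) for the 38 members (red) and all 19938 genes (grey), in 1 panel per comparison. The red curve lies left of the grey one over most of its course, with medians of -0.94, -0.73 and -0.23 for anti-DCIR2-BDC against PBS, anti-DEC205-BDC against PBS and anti-DCIR2-BDC against anti-DEC205-BDC.

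Among 7 measured genes for nucleic acid sensing and interferon signalling, 5 were lower in anti-DCIR2-BDC and 4 in anti-DEC205-BDC cells, with median changes of -1.10 and -0.90. At the same threshold 7.82% and 3.53% of all genes were lower in these comparisons. Zbp1, which senses nucleic acid in the Z form and can trigger cell death, had levels of 6.99 and 7.24 in the anti-DCIR2-BDC arrays, 7.52 and 7.71 in the anti-DEC205-BDC arrays and 9.07 and 9.26 in the PBS arrays. Every array of both antibody groups was below every PBS array, and the antibody groups did not overlap each other. Its change was -2.05 ± 0.20 (SE) in anti-DCIR2-BDC against PBS (limma adjusted p = 9.39e-05) and -1.55 ± 0.20 in anti-DEC205-BDC against PBS (limma adjusted p = 0.00144). Between the antibodies the difference was -0.50, with a 95% interval of -0.94 to -0.07 and a limma adjusted p of 0.422.

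Ddx58 encodes RIG-I, a helicase that detects viral RNA in the cytosol. It had levels of 5.82 and 6.32 in the anti-DCIR2-BDC arrays, 7.01 and 6.76 in the anti-DEC205-BDC arrays and 7.77 and 8.34 in the PBS arrays. The 3 groups did not overlap, with anti-DCIR2-BDC lowest and PBS highest. Ddx58 was 3.97-fold lower in anti-DCIR2-BDC cells (change -1.99 ± 0.25, limma adjusted p = 0.000368) and 2.25-fold lower in anti-DEC205-BDC cells (-1.17 ± 0.25, limma adjusted p = 0.0158). The second call was lost under 3 alternatives, which left out PBS replicate 2, left out anti-DEC205-BDC replicate 2 or tested every probe set, with adjusted p from 0.00748 to 0.105 over all alternatives.

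Stat2, a subunit of the interferon-activated transcription factor, had 6.08 and 6.07 in the anti-DCIR2-BDC arrays, 6.36 and 6.88 in the anti-DEC205-BDC arrays and 7.60 and 7.45 in the PBS arrays. The PBS arrays were again the highest without overlap. Its change was -1.45 ± 0.21 in anti-DCIR2-BDC (limma adjusted p = 0.000857) and -0.90 ± 0.21 in anti-DEC205-BDC cells (limma adjusted p = 0.0244). The anti-DEC205-BDC call was lost under 7 of the alternatives, with adjusted p from 0.0138 to 0.155. Leaving out either PBS array, anti-DEC205-BDC replicate 1 or either anti-DCIR2-BDC array, fitting the 4 arrays compared alone and testing every probe set each ended it.

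Usp18, a protease that removes Isg15 from proteins and blocks signalling at the interferon receptor, had levels of 5.47 and 5.56 in anti-DCIR2-BDC, 5.42 and 5.69 in anti-DEC205-BDC and 6.81 and 6.43 in PBS arrays. The 2 antibody groups overlapped each other and both lay below PBS. It was 2.14-fold lower in anti-DCIR2-BDC cells (limma adjusted p = 0.00219) and 2.09-fold lower in anti-DEC205-BDC cells (limma adjusted p = 0.00677, lost when every probe set was tested, with a range of 0.00266 to 0.06 over the alternatives). The difference between the antibodies was -0.04, with a 95% interval of -0.45 to 0.38. Dhx58, which encodes the helicase LGP2, a modulator of RIG-I, was lower in anti-DCIR2-BDC cells (-0.89, limma adjusted p = 0.00285) and had a change of -0.49 in anti-DEC205-BDC cells (limma adjusted p = 0.0915). Ifih1, which encodes another viral RNA sensor, did not pass in either comparison.

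Trim25, a ubiquitin ligase that acts on RIG-I, was among the 3 members with the highest upward changes. Its levels were 8.08 and 7.96 in the anti-DCIR2-BDC arrays, 7.72 and 7.69 in the anti-DEC205-BDC arrays and 7.78 and 7.82 in the PBS arrays. The anti-DCIR2-BDC arrays were the highest and the anti-DEC205-BDC arrays the lowest. Neither its change of 0.22 in anti-DCIR2-BDC against PBS (95% interval -0.18 to 0.62) nor that of -0.09 in anti-DEC205-BDC against PBS (-0.49 to 0.31) passed, with limma adjusted p of 0.491 and 0.849.

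The antiviral effectors were the most mixed role, with 7 of 18 lower and 1 higher in anti-DCIR2-BDC, 6 lower in anti-DEC205-BDC cells, and medians of -0.54 and -0.46. Over all genes 7.82% were lower and 10.1% higher in anti-DCIR2-BDC, and 3.53% lower and 5.32% higher in anti-DEC205-BDC cells. Samd9l had levels of 7.07 and 7.13 in the anti-DCIR2-BDC arrays, 8.03 and 8.09 in the anti-DEC205-BDC arrays and 9.88 and 9.60 in the PBS arrays. All 3 groups stood apart, and the gap between anti-DCIR2-BDC and anti-DEC205-BDC was far wider than that between the arrays of either group. The change was -2.64 ± 0.19 in anti-DCIR2-BDC against PBS (limma adjusted p = 3.93e-05) and -1.68 ± 0.19 in anti-DEC205-BDC against PBS (limma adjusted p = 0.000809). Directly compared, anti-DCIR2-BDC cells had a difference of -0.96 from anti-DEC205-BDC cells (95% interval -1.37 to -0.55, limma adjusted p = 0.166), which did not pass over all genes.

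Ifit1, whose protein binds foreign RNA and blocks its translation, and which carries 2 cores in the stretch printed above, had 5.21 and 5.12 in anti-DCIR2-BDC, 5.24 and 5.38 in anti-DEC205-BDC and 6.88 and 6.48 in PBS arrays. Both antibody groups lay well below PBS and close to each other. Its changes were -1.52 ± 0.18 in anti-DCIR2-BDC (limma adjusted p = 0.000265) and -1.37 ± 0.18 in anti-DEC205-BDC cells (limma adjusted p = 0.00166), and the difference between the antibodies was -0.15 (95% interval -0.54 to 0.25). Ifit3, of the same family, had 4.73 and 4.33 in anti-DCIR2-BDC, 4.84 and 4.80 in anti-DEC205-BDC and 5.80 and 6.09 in PBS arrays. PBS was highest without overlap. Ifit3 was 2.67-fold lower in anti-DCIR2-BDC cells (limma adjusted p = 0.00032) and 2.18-fold lower in anti-DEC205-BDC cells (limma adjusted p = 0.00353, lost when every probe set was tested, at 0.0514 with a range of 0.00179 to 0.0514). Ifit2, the neighbour of Ifit3 on chromosome 19, was lower in anti-DCIR2-BDC cells (-0.97, limma adjusted p = 0.0353, lost under 5 alternatives with a range of 0.00935 to 0.285) and changed by -0.55 in anti-DEC205-BDC cells (limma adjusted p = 0.298).

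The oligoadenylate synthetase genes, whose products activate RNA decay, did not move as 1 block. Oas3 and Oasl2 were lower in both antibody groups, with changes of -0.72 and -1.03 in anti-DCIR2-BDC and -0.81 and -0.85 in anti-DEC205-BDC against PBS. Their anti-DEC205-BDC calls were lost under 3 and 5 alternatives, with limma adjusted p up to 0.0701 and 0.209, and their anti-DCIR2-BDC calls under 2 each, up to 0.0858 and 0.0863. Oas1a and Oas2 did not pass, with changes of -0.95 and -0.82 in anti-DCIR2-BDC and -0.92 and -0.70 in anti-DEC205-BDC against PBS. Against PBS, Oas1a passed under 6 alternatives in anti-DCIR2-BDC and 1 in anti-DEC205-BDC cells (limma adjusted p from 0.00251 to 0.379 and from 0.00763 to 0.507), and Oas2 under 3 and 1 (from 0.0115 to 0.368 and from 0.0145 to 0.841). Their replicate arrays differed widely: the largest replicate SD of any member was that of Oas2 in anti-DEC205-BDC (0.806) and of Oas1a in PBS (0.794). Oasl1, which lies next to Oasl2 on chromosome 5, changed by -0.01 in anti-DCIR2-BDC and 0.01 in anti-DEC205-BDC cells. These genes share sequence, so their probe sets may also read each other's RNA. Mx2, of the dynamin-like antiviral GTPases, was lower in both groups (-0.59 in anti-DCIR2-BDC and -0.72 in anti-DEC205-BDC), with adjusted p from 0.0116 to 0.349 and from 0.0179 to 0.154 over the alternatives. Those calls were lost under 8 and 6 of them. Mx1, Isg20, Eif2ak2, Rsad2, Cmpk2 and Adar did not pass in either comparison. Of these, Rsad2 and Cmpk2 are neighbours on chromosome 12.

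Ifitm3 was the 1 member that passed as higher, in anti-DCIR2-BDC cells. Ifitm3, which blocks virus entry at endosomal membranes, had levels of 6.47 and 6.21 in anti-DCIR2-BDC arrays, 5.94 and 6.42 in anti-DEC205-BDC arrays and 5.73 and 5.30 in PBS arrays. Each antibody array was above both PBS arrays, and the antibody groups overlapped. Its change was 0.83 ± 0.22 in anti-DCIR2-BDC (limma adjusted p = 0.024) and 0.67 ± 0.22 in anti-DEC205-BDC cells (limma adjusted p = 0.0979). The first call was lost when PBS replicate 2 or either anti-DCIR2-BDC array was left out or every probe set was tested, with adjusted p from 0.0121 to 0.171 over the alternatives. Bst2, which encodes tetherin, a membrane protein that holds budding virus on the cell, had 8.40 and 8.69 in anti-DCIR2-BDC, 7.70 and 8.03 in anti-DEC205-BDC and 7.98 and 7.94 in PBS arrays. The anti-DCIR2-BDC arrays were above all others. Its change was 0.58 in anti-DCIR2-BDC against PBS (95% interval 0.14 to 1.03, limma adjusted p = 0.0751, under 0.05 in 3 alternatives with a range of 0.036 to 0.37) and -0.09 in anti-DEC205-BDC against PBS (limma adjusted p = 0.865), and the antibodies differed by 0.68 (0.23 to 1.13, limma adjusted p = 0.297).

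Herc6, Parp9, Parp14, Dtx3l and Trim30a, listed together for roles in ubiquitin, Isg15 and ADP-ribose modification, were all lower in anti-DCIR2-BDC cells, and 4 of the 5 in anti-DEC205-BDC cells, with medians of -1.48 and -0.91. Of all genes 7.82% and 3.53% were lower. Parp14, Dtx3l and Parp9 lie next to each other on chromosome 16. Parp9, which pairs with the ubiquitin ligase Dtx3l, had levels of 5.78 and 5.76 in anti-DCIR2-BDC, 6.46 and 6.30 in anti-DEC205-BDC and 7.36 and 7.39 in PBS arrays. The 3 groups stood apart with little spread inside each. Its change was -1.60 ± 0.17 in anti-DCIR2-BDC (limma adjusted p = 0.00017) and -0.99 ± 0.17 in anti-DEC205-BDC cells (limma adjusted p = 0.00634). Dtx3l had 6.21 and 6.47 in anti-DCIR2-BDC, 6.57 and 7.00 in anti-DEC205-BDC and 7.54 and 7.51 in PBS arrays. The groups did not overlap, in the same order as for Parp9. Dtx3l was lower in anti-DCIR2-BDC cells (-1.18 ± 0.21, limma adjusted p = 0.00255) and had a change of -0.74 ± 0.21 in anti-DEC205-BDC cells (limma adjusted p = 0.053, which fell under 0.05 in 6 alternatives with a range of 0.032 to 0.275).

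Parp14, an enzyme that adds single ADP-ribose units, had 6.21 and 6.34 in anti-DCIR2-BDC, 6.87 and 6.83 in anti-DEC205-BDC and 7.93 and 7.58 in PBS arrays. Again the groups did not overlap and anti-DCIR2-BDC was lowest. Its fall was 2.79-fold in anti-DCIR2-BDC (limma adjusted p = 0.000483) and 1.88-fold in anti-DEC205-BDC cells (limma adjusted p = 0.0164). Trim30a, an interferon-induced tripartite motif protein of mice, had 6.72 and 6.68 in anti-DCIR2-BDC, 7.64 and 7.30 in anti-DEC205-BDC and 8.42 and 8.51 in PBS arrays. All 3 groups stood apart. Trim30a was 3.40-fold lower in anti-DCIR2-BDC (limma adjusted p = 0.000197) and 1.99-fold lower in anti-DEC205-BDC cells (limma adjusted p = 0.0114), and the antibodies differed by -0.77 (95% interval -1.21 to -0.34, limma adjusted p = 0.23).

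Herc6, the ligase that attaches Isg15 in mice, had 5.70 and 5.43 in anti-DCIR2-BDC, 5.97 and 5.88 in anti-DEC205-BDC and 6.61 and 6.98 in PBS arrays. PBS was highest without overlap. It was 2.34-fold lower in anti-DCIR2-BDC (limma adjusted p = 0.0013) and 1.83-fold lower in anti-DEC205-BDC cells (limma adjusted p = 0.0184). In anti-DEC205-BDC cells the calls of Herc6, Parp14 and Trim30a were lost under 4, 4 and 3 alternatives, with adjusted p up to 0.103, 0.103 and 0.0826 and no lower than 0.00942, 0.00933 and 0.00484.

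**Figure D3:**
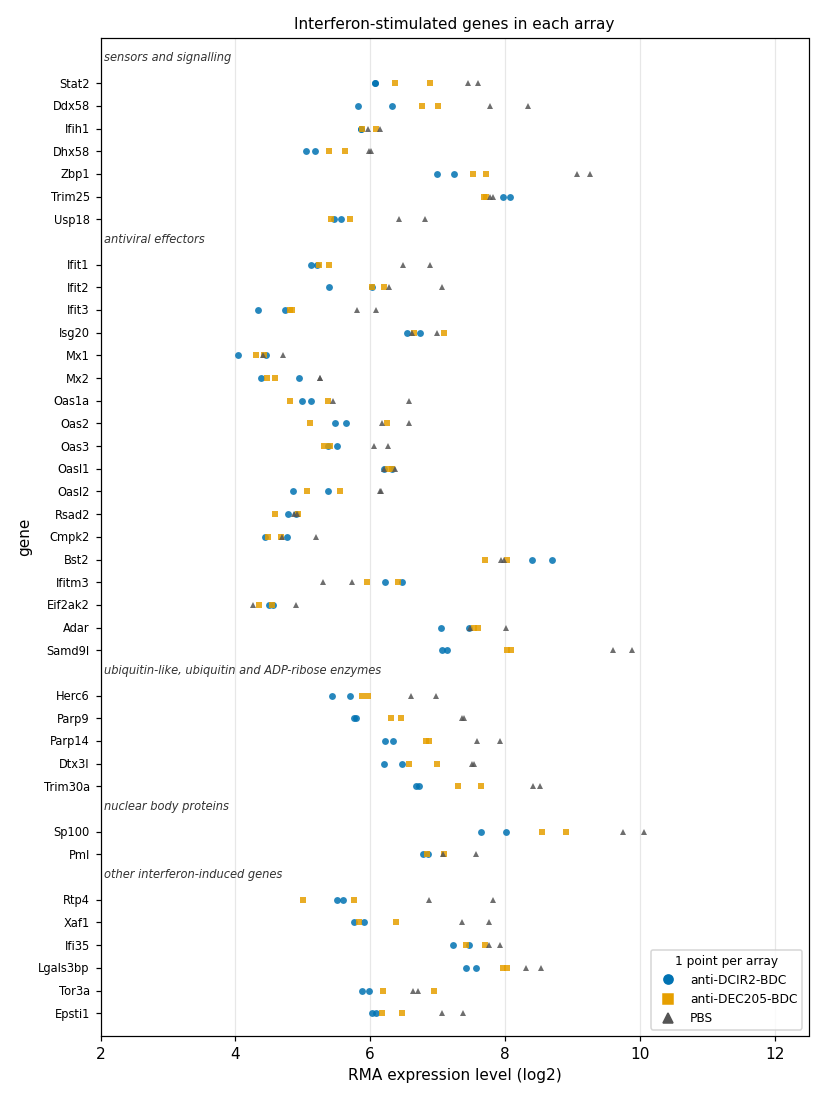
RMA level (log2, horizontal axis) of each measured member in each of the 6 arrays, grouped by role down the page, with circles for anti-DCIR2-BDC, squares for anti-DEC205-BDC and triangles for PBS. Samd9l shows 3 separate pairs at 7.07 and 7.13, 8.03 and 8.09, and 9.88 and 9.60, while Oasl1 shows 6 points between 6.20 and 6.36.

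Sp100, a resident of nuclear bodies that repress incoming viral genomes, had levels of 7.65 and 8.02 in anti-DCIR2-BDC, 8.91 and 8.55 in anti-DEC205-BDC and 9.75 and 10.05 in PBS arrays. The 3 groups did not overlap. Its change was -2.07 ± 0.21 in anti-DCIR2-BDC (limma adjusted p = 0.000131) and -1.17 ± 0.21 in anti-DEC205-BDC cells (limma adjusted p = 0.00731), and the antibodies differed by -0.89 (95% interval -1.36 to -0.43, limma adjusted p = 0.218). Leaving out anti-DEC205-BDC replicate 2 or testing every probe set ended the anti-DEC205-BDC call, with adjusted p from 0.00224 to 0.0635 over the alternatives. Pml, which organises the same bodies, changed by -0.51 in anti-DCIR2-BDC and -0.36 in anti-DEC205-BDC cells and did not pass (limma adjusted p = 0.15 and 0.405).

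Among 6 other interferon-induced genes, 4 were lower in anti-DCIR2-BDC and 3 in anti-DEC205-BDC cells, with medians of -1.05 and -0.66. The shares of all genes that were lower were 7.82% and 3.53%. Rtp4, a chaperone of membrane receptors in the Golgi, had 5.60 and 5.51 in anti-DCIR2-BDC, 5.00 and 5.77 in anti-DEC205-BDC and 7.82 and 6.87 in PBS arrays. The antibody groups overlapped and lay below both PBS arrays, although the arrays of anti-DEC205-BDC and of PBS were spread widely. Its change was -1.79 ± 0.31 in anti-DCIR2-BDC (limma adjusted p = 0.00255) and -1.96 ± 0.31 in anti-DEC205-BDC cells (limma adjusted p = 0.00415), and the antibodies differed by 0.17 (95% interval -0.52 to 0.86).

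Xaf1, a promoter of cell death that counters the inhibitor Xiap, had 5.77 and 5.91 in anti-DCIR2-BDC, 5.83 and 6.38 in anti-DEC205-BDC and 7.76 and 7.36 in PBS arrays. The antibody groups overlapped each other, and both were below PBS. It was 3.30-fold lower in anti-DCIR2-BDC (limma adjusted p = 0.00051) and 2.74-fold lower in anti-DEC205-BDC cells (limma adjusted p = 0.00387). The anti-DEC205-BDC calls of Rtp4 and Xaf1 were lost when every probe set was tested, at 0.069 and 0.0537, the highest of ranges that began at 0.00135 and 0.0016.

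Epsti1, another interferon-induced gene, had 6.02 and 6.09 in anti-DCIR2-BDC, 6.17 and 6.48 in anti-DEC205-BDC and 7.38 and 7.06 in PBS arrays. No 2 groups overlapped, and PBS was highest. Epsti1 was 2.24-fold lower in anti-DCIR2-BDC (limma adjusted p = 0.00209) and 1.86-fold lower in anti-DEC205-BDC cells (limma adjusted p = 0.0186, lost under 3 alternatives with a range of 0.0109 to 0.113). Lgals3bp, a secreted galectin-binding glycoprotein, was lower in anti-DCIR2-BDC cells (-0.93, limma adjusted p = 0.00564) and changed by -0.42 in anti-DEC205-BDC cells (limma adjusted p = 0.232). Its anti-DCIR2-BDC call was lost without anti-DCIR2-BDC replicate 2, at 0.0573 with a range from 0.00213. Tor3a and Ifi35 did not pass in either comparison.

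Median falls were larger in members with the GAAA pair upstream, but several members with the largest falls lacked it. The 8 with the core had a median change of -1.18 in anti-DCIR2-BDC and -0.91 in anti-DEC205-BDC against PBS, and 5 of 8 were lower in each. The 20 with a window and no core had medians of -0.72 and -0.39, with 10 and 7 lower, and the difference was not tested. Samd9l, Sp100, Ddx58 and Xaf1 are among those without it, and Rsad2, whose core is printed above, changed by -0.05 in anti-DCIR2-BDC and -0.13 in anti-DEC205-BDC cells. Bst2, which also holds the core, changed by 0.58 in anti-DCIR2-BDC and -0.09 in anti-DEC205-BDC cells. Dhx58, Mx1, Mx2, Oas2, Parp14, Parp9, Rtp4, Tor3a, Usp18 and Zbp1 had no window here.

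The pathway that leads to these genes was read from 45 measured genes of 54 listed. In anti-DCIR2-BDC cells 14 were lower and 4 higher, and in anti-DEC205-BDC cells 9 were lower and 2 higher, at a limma adjusted p under 0.05. Over all genes 7.82% were lower and 10.1% higher in anti-DCIR2-BDC cells, and 3.53% lower and 5.32% higher in anti-DEC205-BDC cells, and the counts of higher pathway genes (4 and 2 of 45) were near those shares. Of 15 measured interferon genes, 1, Ifng, passed limma's test in anti-DCIR2-BDC cells. The type I gene Ifna5 was lower there at an unadjusted p under 0.05 but did not pass (-0.53, limma adjusted p = 0.0837). In anti-DEC205-BDC cells 0 passed and 0 had an unadjusted p under 0.05. Ifnb1, which encodes interferon beta, had 3.96 and 3.95 in anti-DCIR2-BDC, 3.92 and 4.11 in anti-DEC205-BDC and 3.93 and 4.03 in PBS arrays. The 3 groups overlapped, with changes of -0.02 and 0.04 against PBS. Ifng, which encodes interferon gamma, had 6.53 and 7.05 in anti-DCIR2-BDC, 6.63 and 6.07 in anti-DEC205-BDC and 6.21 and 5.21 in PBS arrays. The anti-DCIR2-BDC arrays lay above PBS and the anti-DEC205-BDC arrays overlapped both. Its change was 1.07 ± 0.32 in anti-DCIR2-BDC (limma adjusted p = 0.0423, lost under 5 alternatives with a range of 0.00638 to 0.295) and 0.63 ± 0.32 in anti-DEC205-BDC cells (limma adjusted p = 0.304).

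Of 6 receptor chains, 5 were lower in anti-DCIR2-BDC and 2 in anti-DEC205-BDC cells, where 7.82% and 3.53% of all genes were lower. Ifnar1, a chain of the type I interferon receptor, had 7.30 and 7.75 in anti-DCIR2-BDC, 8.26 and 7.94 in anti-DEC205-BDC and 8.35 and 8.65 in PBS arrays. Ifnar2, its partner chain, had 7.34 and 8.05 in anti-DCIR2-BDC, 8.23 and 8.13 in anti-DEC205-BDC and 9.02 and 8.89 in PBS arrays. Neither gene's groups overlapped, and anti-DCIR2-BDC was lowest for both. Ifnar1 changed by -0.98 ± 0.22 in anti-DCIR2-BDC (limma adjusted p = 0.0113, lost under 3 alternatives with a range of 0.00432 to 0.113) and by -0.40 ± 0.22 in anti-DEC205-BDC cells (limma adjusted p = 0.363). Ifnar2 changed by -1.25 ± 0.24 in anti-DCIR2-BDC (limma adjusted p = 0.00396) and by -0.77 ± 0.24 in anti-DEC205-BDC cells (limma adjusted p = 0.0761). Ifnar2, Il10rb, Ifnar1 and Ifngr2 are consecutive coding genes on chromosome 16, and Il10rb and Ifngr2 were also lower in anti-DCIR2-BDC cells (-1.08 and -1.54). The interferon gamma receptor chains Ifngr1 and Ifngr2 had changes of -1.86 and -1.54 in anti-DCIR2-BDC and -1.39 and -1.17 in anti-DEC205-BDC cells, and passed in both.

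Of 10 measured kinases and transcription factors, 5 were lower and 2 higher in each antibody group against PBS. Of all genes, 7.82% were lower and 10.1% higher in anti-DCIR2-BDC, and 3.53% lower and 5.32% higher in anti-DEC205-BDC cells. Tyk2, Irf3 and Irf5 did not pass in either comparison, with limma adjusted p from 0.263 to 0.935. Jak1, the kinase shared by the interferon receptors, had 9.80 and 9.79 in anti-DCIR2-BDC, 10.24 and 10.22 in anti-DEC205-BDC and 10.87 and 11.02 in PBS arrays. Its groups stood apart, with changes of -1.15 and -0.72 (limma adjusted p = 0.000216 and 0.00775). Irf9, the DNA-binding subunit of the interferon-activated complex, had 7.27 and 7.24 in anti-DCIR2-BDC, 7.48 and 7.23 in anti-DEC205-BDC and 8.16 and 8.23 in PBS arrays. Both antibody groups were below PBS, by -0.94 in anti-DCIR2-BDC (limma adjusted p = 0.00537) and -0.84 in anti-DEC205-BDC cells (limma adjusted p = 0.0201). Irf7, which drives interferon alpha genes and is itself induced by interferon, had 6.43 and 6.29 in anti-DCIR2-BDC, 6.07 and 6.02 in anti-DEC205-BDC and 7.33 and 7.57 in PBS arrays. The anti-DEC205-BDC arrays were the lowest, with changes of -1.09 in anti-DCIR2-BDC (limma adjusted p = 0.00193) and -1.41 in anti-DEC205-BDC cells (limma adjusted p = 0.00161).

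Irf1 and Irf2, an activator and a repressor that bind the same element, were lower in both groups, by -1.69 and -1.14 in anti-DCIR2-BDC and -0.85 and -0.90 in anti-DEC205-BDC cells. Irf8 was higher in both, at 8.38 and 8.31 in anti-DCIR2-BDC, 7.85 and 8.60 in anti-DEC205-BDC and 6.47 and 6.59 in PBS arrays, with changes of 1.82 and 1.70 (limma adjusted p = 0.000568 and 0.00273). Jak2, a kinase of the interferon gamma receptor, was also higher, by 0.73 in anti-DCIR2-BDC and 0.65 in anti-DEC205-BDC cells. Among 5 inhibitors of the pathway, Pias1 was lower in both groups (-0.84 and -0.89), and in anti-DCIR2-BDC cells Socs3 was lower (-1.23) and Ptpn11 higher (1.05). The 9 genes that lead from nucleic acid sensors to interferon were mixed, with median changes of -0.14 in anti-DCIR2-BDC and 0.09 in anti-DEC205-BDC cells. Of these, the kinase gene Ikbke was lower in both groups (-1.47 in anti-DCIR2-BDC and -0.91 in anti-DEC205-BDC) and its relative Tbk1 in anti-DCIR2-BDC (-0.80). Mavs was higher in both at an unadjusted p under 0.05 but did not pass. Its changes were 0.66 in anti-DCIR2-BDC (limma adjusted p = 0.0501) and 0.52 in anti-DEC205-BDC cells (limma adjusted p = 0.172). Between the antibodies 0 of 45 pathway genes passed limma's test. At an unadjusted p under 0.05, 5 (11.1%) were lower and 0 were higher in anti-DCIR2-BDC cells. Over all genes 10.2% reached that level, 4.63% lower and 5.58% higher. In anti-DEC205-BDC cells 2 of the 11 calls, those of Irf7 and Irf8, held under every alternative, and the limma adjusted p of the other 9 reached between 0.0554 (Jak1) and 0.174 (Ikbke). In anti-DCIR2-BDC cells 11 of the 18 held, and Ifnar1, Ifng, Jak2, Pias1, Ptpn11, Socs3 and Tbk1 lost the call under at least 1, with limma adjusted p up to between 0.0769 (Ptpn11) and 0.295 (Ifng).

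**Figure D4:**
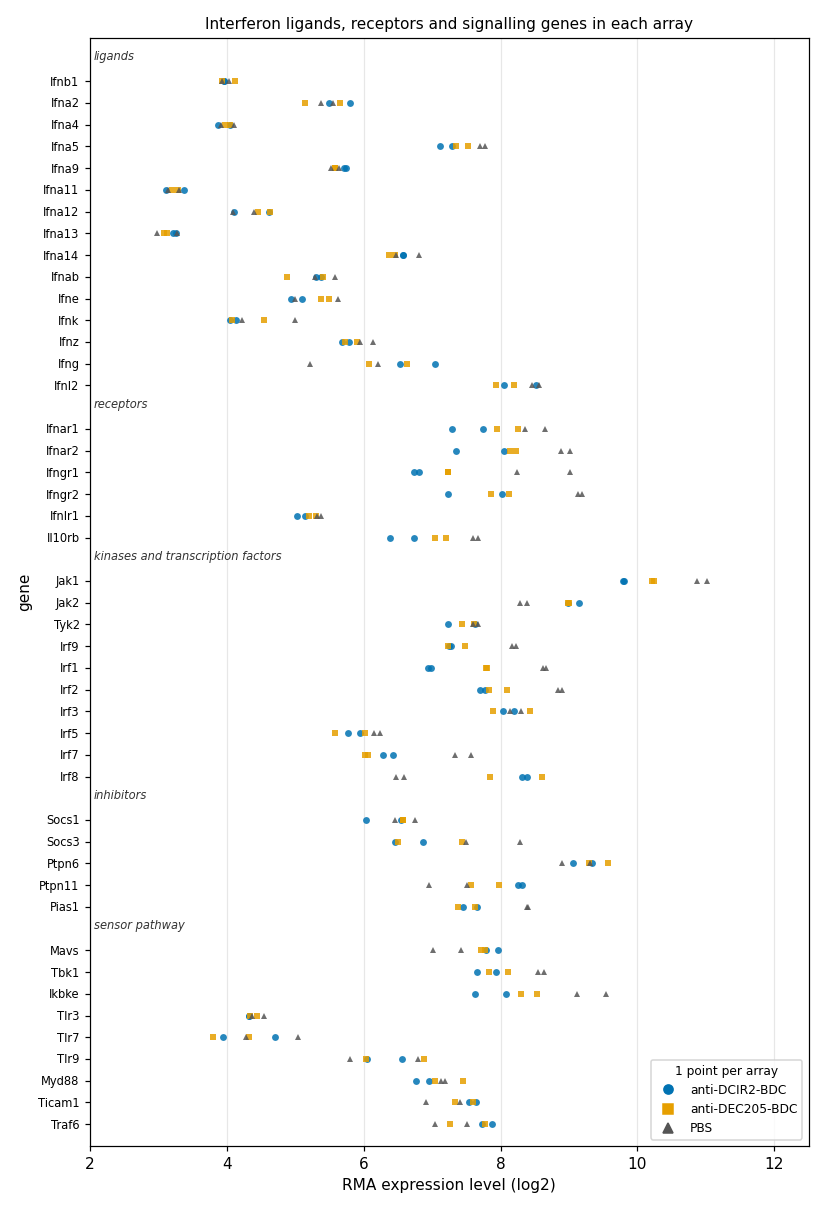
RMA level (log2, horizontal axis) of 45 pathway genes in each of the 6 arrays, grouped as ligands, receptors, kinases and transcription factors, inhibitors and sensor pathway, with circles for anti-DCIR2-BDC, squares for anti-DEC205-BDC and triangles for PBS. Jak1 falls in 3 separate pairs between 9.79 and 11.02, and Irf8 is higher in all 4 antibody arrays than in PBS.

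Among other gene lists, T cell identity markers had lower means in both antibody groups than in PBS, and cell cycle genes had higher ones. Of 10 T cell identity markers, 7 were lower and 1, Zap70, was higher in anti-DCIR2-BDC, and 1 was lower and 1 higher in anti-DEC205-BDC cells. A further 4 (Cd3d, Cd3e, Cd3g and Cd2) were lower in anti-DEC205-BDC cells at an unadjusted p under 0.05. Over all genes 7.82% were lower and 10.1% higher by limma's test in anti-DCIR2-BDC, and 3.53% lower and 5.32% higher in anti-DEC205-BDC cells. An unadjusted p under 0.05 was reached by 28.1% and 20.7% of all genes. Of 5 cell cycle genes, 4 were higher in each antibody group, with mean levels of 8.02 to 8.07 in anti-DCIR2-BDC, 7.42 to 7.64 in anti-DEC205-BDC and 6.20 to 6.32 in PBS arrays. Among the 31 markers of B cells, dendritic cells, macrophages and neutrophils, 0 passed limma's test in anti-DCIR2-BDC cells (3 at an unadjusted p under 0.05). In anti-DEC205-BDC cells 1, Cd14, was lower (-0.83), and 3 including Cd14 had an unadjusted p under 0.05. Of 6 natural killer cell markers, Eomes was higher (1.06 in anti-DCIR2-BDC and 1.64 in anti-DEC205-BDC) and Prf1 lower (-0.95 and -0.97) against PBS, both genes that T cells can also express, and Ncr1, Klrb1c, Klre1 and Klra8 did not pass. Nor did any of 2 CD8 T cell and 2 erythroid markers in either comparison (limma, with 0 at an unadjusted p under 0.05 in anti-DCIR2-BDC and 1 of each list in anti-DEC205-BDC cells). The mean of the 6 natural killer cell markers was 4.91 to 4.94 in anti-DCIR2-BDC, 5.00 to 5.18 in anti-DEC205-BDC and 4.83 to 4.98 in PBS arrays. On the linear scale the 31 markers summed to 999 to 1006 in anti-DCIR2-BDC, 1077.0 to 1077.2 in anti-DEC205-BDC and 1061 to 1134 in PBS arrays, and the brightest, Cd68, averaged 6.60 on the log2 scale. Of 4 measured plasmacytoid dendritic cell markers, cells known as strong interferon producers, 0 passed in either comparison with PBS and 0 had an unadjusted p under 0.05. The part of these lists in the members' changes was not tested. In bulk RNA, fewer cells of a type and less RNA per cell cannot be told apart.

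**Figure D5:**
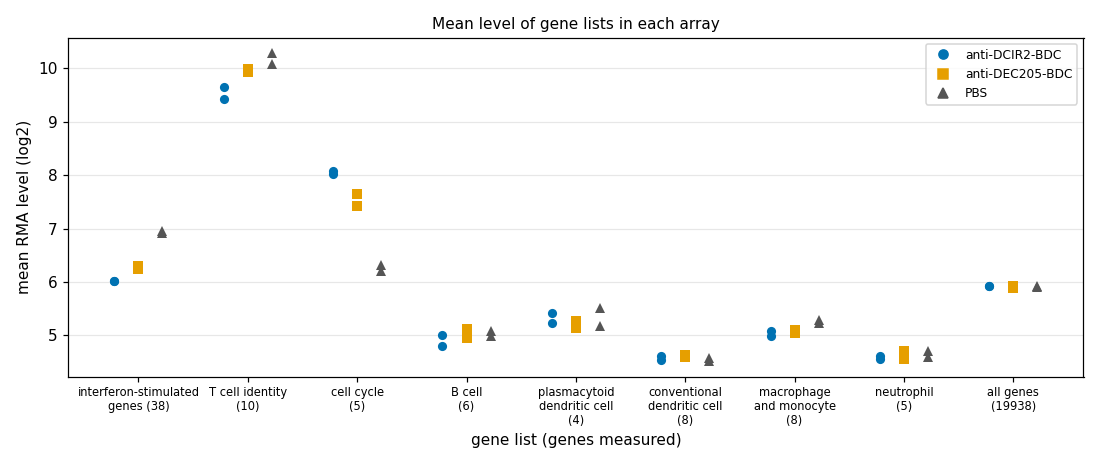
Mean RMA level (log2, vertical axis) of the 38 members, of each marker list and of all genes in each array, with circles for anti-DCIR2-BDC, squares for anti-DEC205-BDC and triangles for PBS. The members lie at 6.02 and 6.03, 6.24 and 6.30, and 6.96 and 6.92 in that order of groups, and the cell cycle list runs the other way.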

How the data were processed

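Total RNA of sorted T cells was measured on 6 arrays, 2 in each of 3 groups. The authors deposited log2 values. Per the submitters' processing notes and the design text of the series, Partek made them by RMA. Its version and the genome build were not given in the sources used here. Values cover 35556 probe sets. The platform annotation names 21789 with 1 gene symbol, 1621 with several and 12146 with none. Levels of different probe sets depend on the probes as well as on the RNA.

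Each gene was read from its brightest probe set with 1 symbol, giving 19938 genes. All 6 arrays were fitted with limma 3.58.1 in R 4.3.3 (group means, eBayes with a trend, Benjamini-Hochberg over all genes, threshold 0.05), a fit tested on simulated data. A first simulation with raw variances per gene missed its recovery limit, and the simulation was then changed to moderated variances. Intervals are 95%. Replicate numbers of the labels were checked for pairing: deviations of same-numbered arrays correlated at 0.07, 0.14 and 0.13, so the numbers were not taken to pair samples. Promoters came from RefSeq (GRCm38.p6). Values of every array are given for the 16 members with the largest mean change among those that passed without overlapping arrays, and for the 3 with the highest upward change. Pathway genes are named where they passed, with Ifnb1, Ifnar1, Ifnar2, Irf9, Irf7 and Ifng in any case. Ifna5, Mavs, Tyk2, Irf3 and Irf5 are named besides. A withheld item is not reported here. The members and gene lists were chosen with earlier results of these data known. The 17 alternatives left out each array, changed normalisation, filters, probe sets, the variance model, array weights or the arrays fitted, or added the replicate number as a block.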

Additional observations from a re-analysis of the deposited data

How the results depend on the processing

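The direction of the members' median change was the same under all 17 alternatives in each of the 3 comparisons. In anti-DCIR2-BDC against PBS, 18 to 26 members passed when an array was left out, 19 with every probe set tested and 24 with the replicate number as a block, against 23. Their median was -0.84 with each array centred on its median and -1.10 without the dimmest 50% of genes, which leaves fewer members. In anti-DEC205-BDC against PBS, 12 to 17 members passed when an array was left out, 4 with every probe set tested, which adjusts over 35556 probe sets, and 19 with the block, against 18, and the median was -0.85 without the dimmest 30% of genes. The 12 came without PBS replicate 1 and without anti-DEC205-BDC replicate 1. The pathway genes that passed there numbered 3 to 11 when an array was left out (3 and 5 without PBS replicates 2 and 1, 7 and 6 without anti-DEC205-BDC replicates 1 and 2) and 3 with every probe set tested, against 11. Over all genes, the calls in anti-DEC205-BDC against PBS numbered 1763, against 694 with every probe set tested and 997 to 1367 when an array was left out. With median centring 498 genes were lower and 1186 higher, against 703 and 1060. In anti-DCIR2-BDC against PBS 1560 were lower and 2008 higher, against 1173 and 2394 with median centring, which gave a median of all genes of 0.06 in place of -0.05, and 2090 to 3637 were called when an array was left out. Between the antibodies, 4 genes of all passed, and 0 to 27 when an array was left out (27 without anti-DEC205-BDC replicate 2), but 0 members passed under any alternative. Of the members that did not pass, 4 of 15 in anti-DCIR2-BDC against PBS, 8 of 20 in anti-DEC205-BDC against PBS and 13 of 38 between the antibodies changed sign under at least 1 alternative, and no member that passed did. Values are given here for the named genes. When an array was left out, Ifnb1 ranged from -0.054 to 0.14 in anti-DEC205-BDC and from -0.070 to 0.033 in anti-DCIR2-BDC against PBS, and it was 0.065 with quantile normalisation and 0.088 with median centring in the second. Bst2 ranged from -0.26 to 0.072 in anti-DEC205-BDC against PBS. Between the antibodies, leaving out an anti-DEC205-BDC array gave both ends of the range: -0.076 to 0.40 for Ifitm3, -0.21 to 0.55 for Rtp4, -0.22 to 0.019 for Irf9, -0.18 to 0.10 for Usp18, -0.55 to 0.0095 for Xaf1 and -0.15 to 0.035 for Ifnb1. Usp18 was 0.00054 with median centring and Ifnb1 0.014 with quantile normalisation. The causes were not tested. With 1 array left in a group, that array is assumed to vary like the others. With the replicate block no member lost a call. Arrays are few, and signal near background limits the dim genes such as Ifnb1.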
